A study of Mus musculus with 24 samples.

Results

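Aquaporins are channel proteins that let water, and in some cases glycerol, cross cell membranes. The aquaporins described here are the 7 that are known from the kidney tubule, Aqp1, Aqp2, Aqp3, Aqp4, Aqp6, Aqp7 and Aqp11, taken by gene symbol from a table of RNA-seq read counts for 54532 genes in whole kidneys of 24 mice. All 7 were found, and all 7 passed the limit on low expression that left 22570 genes to be tested. The mice were C57BL/6 animals aged 18 days, with 1 library per mouse, and all of them had a copy of Pkd1, the gene for polycystin-1, in the form of the RC missense allele. In the 3 groups labelled RC/+ the other Pkd1 allele was floxed but intact, as no Cre was present. In the 3 groups labelled RC/- a Cre transgene driven by the Ksp promoter, which is active in tubule epithelium, had inactivated the floxed allele. All 3 of these groups are labelled cystic and all 3 RC/+ groups control, so that the presence of Cre and the labelled state cannot be told apart. In 2 edited lines, D18 (founder 3) and D53 (raised from founder 2), the miR-17 binding motif had been deleted by CRISPR from the 3′ UTR of the RC allele, and each line descends from a single founder. D18 and D53 are line names and not ages. The unedited RC/+ and RC/- mice are not described as a line of their own. In the paper, edited and unedited mice could come from the same breeding pair, and the founder behind these unedited mice is not stated. The groups held 3 RC/+ mice (replicates 4 to 6), 3 RC/+ D18 (7 to 9), 3 RC/+ D53 (10 to 12), 5 RC/- (13 to 17), 5 RC/- D18 (18 to 22) and 5 RC/- D53 (23 to 27).

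In the proximal tubule and thin descending limb, Aqp1 sits on both faces of the cell and carries most of the water that follows reabsorbed salt, Aqp7 carries water and glycerol in the straight segment, and Aqp11 resides mainly in the endoplasmic reticulum. In the principal cells of the collecting duct, vasopressin acts through its receptor, cyclic AMP and protein kinase A to move Aqp2 into the apical membrane and to raise its transcription, and water leaves the cell through Aqp3 and Aqp4 in the basolateral membrane. Aqp6 lies in vesicles of acid-secreting intercalated cells and conducts anions as well as water.

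Read depth was similar in all groups, with 20379982 to 30837488 counts per library. Levels are given as CPM, a gene's count after each library is scaled to a total of 1000000 counts, and fold changes are from limma-trend on log2 CPM with the adjusted p taken over all genes tested. Of the genes tested, 5753 were higher and 2744 lower in RC/- than in RC/+, and with TMM scaling, which adjusts totals for composition, these numbers were 3844 and 3896. Over all genes the log2 fold change had a median of 0.14 in that comparison with scaling by totals and 0.01 with TMM. A few features set libraries apart from their groups. Libraries 20 to 27, which are 3 of the 5 RC/- D18 and all 5 RC/- D53 libraries, held skeletal muscle markers at a summed 147 to 194 CPM against 5.27 to 9.36 CPM elsewhere. Counts of Gm28438, a pseudogene locus, were 28 to 70 in 12 libraries and 165 to 356 in the other 12, and the split largely followed the groups. All RC/+, RC/+ D53 and RC/- D53 libraries were low and all D18 libraries high, while RC/- replicates 13 to 16 were high and replicate 17 was low. RC/- against RC/+ and RC/- D53 against RC/- thus differ in this locus except for replicate 17. RC/+ D18 against RC/+ and RC/- D53 against RC/- D18 differ in it in all libraries. The interaction contrasts described below hold libraries of both kinds. What the split stands for was not tested. The same replicate 17 had far less Aqp2 than the other RC/- libraries, so values that change most without it are given both ways. Pkd1 itself was at 38.4 to 71.4 CPM across the libraries, a count over the whole gene that does not show the floxed deletion or the motif deletion. Markers of proximal tubule, principal cells and intercalated cells were present in every library.

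The promoters of the members that moved most are shown here because Aqp2 and Aqp3 rose and Aqp1 and Aqp11 fell together in RC/- kidneys. Each line gives the 250 bases before the RefSeq transcription start in build GRCm38.p6, 5′ to 3′ on the strand of the gene, and capitals mark matches to the motifs searched.
Aqp2 (chr15:99578806-99579055, plus strand): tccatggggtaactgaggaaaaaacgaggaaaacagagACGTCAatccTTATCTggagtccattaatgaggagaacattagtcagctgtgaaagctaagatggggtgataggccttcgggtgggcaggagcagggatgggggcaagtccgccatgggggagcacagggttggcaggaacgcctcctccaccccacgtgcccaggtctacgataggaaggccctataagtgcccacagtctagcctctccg
Aqp3 (chr4:41098184-41098433, minus strand): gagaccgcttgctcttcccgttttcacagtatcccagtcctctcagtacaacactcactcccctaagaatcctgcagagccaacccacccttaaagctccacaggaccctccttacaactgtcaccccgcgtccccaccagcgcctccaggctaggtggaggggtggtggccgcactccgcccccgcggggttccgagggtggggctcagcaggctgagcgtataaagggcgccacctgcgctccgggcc
Aqp1 (chr6:55336049-55336298, plus strand): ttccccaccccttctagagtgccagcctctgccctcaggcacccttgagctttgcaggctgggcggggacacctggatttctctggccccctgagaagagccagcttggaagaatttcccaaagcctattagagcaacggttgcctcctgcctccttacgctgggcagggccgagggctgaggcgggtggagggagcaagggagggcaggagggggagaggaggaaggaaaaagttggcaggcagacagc
Aqp11 (chr7:97738248-97738497, minus strand): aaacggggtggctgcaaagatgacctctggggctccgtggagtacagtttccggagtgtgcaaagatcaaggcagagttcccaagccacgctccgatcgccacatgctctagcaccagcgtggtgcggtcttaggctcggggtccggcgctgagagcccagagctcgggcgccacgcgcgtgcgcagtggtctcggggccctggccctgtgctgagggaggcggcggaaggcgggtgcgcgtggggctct

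A few motifs were searched on both strands of 32851 RefSeq promoters of the same length, and promoters were found for 6 of the 7 members. The full cAMP response element TGACGTCA was in 1.55% of promoters and in no member. Its core ACGTCA, which is part of the full element, was in 6.47% of promoters, and among the members only Aqp2 had it, at 212 to 207 bases before the start. The GATA motif AGATAA was in 9.99% of promoters and occurred in Aqp2 on the reverse strand, at 202 to 197 bases before the start, and in 1 of the 2 Aqp7 promoters on the forward strand, at 132 to 127 bases. These matches describe the letters in this window only.

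By position in GRCm38, Aqp2 (chr15:99579055-99584547) and Aqp6 (chr15:99601400-99605477) are neighbours on chromosome 15, 16852 bases apart, with Aqp5 (chr15:99590782-99594829) as the only protein-coding gene between them. Aqp7 (chr4:41033074-41048139) and Aqp3 (chr4:41092722-41098183) lie 44582 bases apart on chromosome 4 with no protein-coding gene between. Aqp1 (chr6:55336432-55348555), Aqp4 (chr18:15389496-15410982) and Aqp11 (chr7:97724006-97738289) stand alone. No exon base of any of the 7 genes was shared with another annotated gene.

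To compare levels between genes, CPM were divided by the length of the union of each gene's exons. In RC/+ kidneys, Aqp1 was at 418 ± 7.02 CPM per kilobase and Aqp2 at 378 ± 101 CPM per kilobase (SD, n = 3 each), which did not differ beyond their spread. Aqp3 followed at 98.9 ± 4.89, Aqp6 at 38.7 ± 1.90, Aqp4 at 11.7 ± 3.16, Aqp11 at 5.57 ± 0.322 and Aqp7 at 3.64 ± 0.319 CPM per kilobase. In RC/- kidneys the order at the top was the other way round, with Aqp2 at 985 ± 470.3 CPM per kilobase, Aqp3 at 233 ± 86.4 and Aqp1 at 196 ± 68.3 (SD, n = 5 each), of which the last 2 lay within each other's spread. In RC/- D18 kidneys, Aqp1 at 397 ± 18.7 and Aqp2 at 407 ± 88.3 CPM per kilobase again lay within each other's spread. Over the 24 libraries the 7 genes spanned from 128 counts, for Aqp7, to 50051 counts, for Aqp2.

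**Figure D1:**
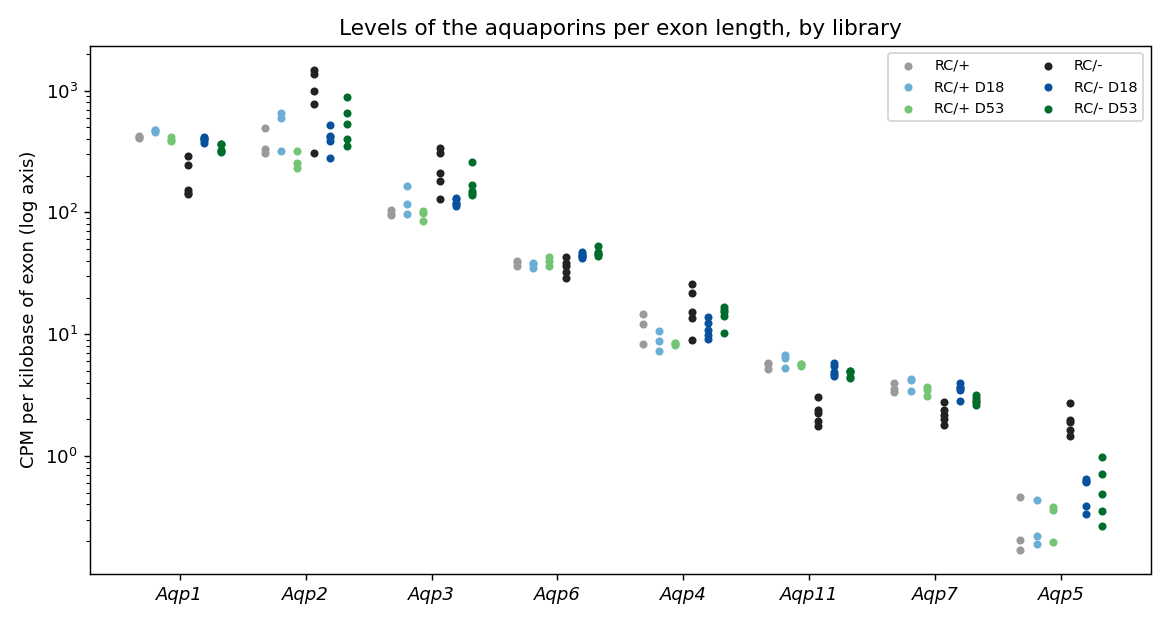
CPM per kilobase of exon (log axis) of the 7 members and of Aqp5 in each of the 24 libraries, coloured by group. Aqp1 and Aqp2 were highest, at 418 and 378 CPM per kilobase on average in RC/+, and Aqp5 reached at most 0.986 CPM per kilobase outside the unedited RC/- group.

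The first question was what differs between cystic RC/- and RC/+ kidneys when the miR-17 motif is intact. The aquaporins split by tubule segment, with Aqp1, Aqp11 and Aqp7 of the proximal tubule lower and Aqp2 and Aqp3 of the principal cell higher in RC/-. Of the 7 members, 2 rose, 3 fell and 2 did not pass, while 37.6% of all genes tested passed in either direction. In whole-kidney RNA, fewer cells of a type and less RNA per cell cannot be told apart.

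Aqp1 was at 1116, 1101 and 1079.7 CPM in the 3 RC/+ libraries. In the 5 RC/- libraries it was at 644, 765, 405, 374 and 382 CPM. All 5 RC/- libraries lay below the lowest RC/+ library, and the log2 fold change was -1.16 ± 0.16 (SE, adjusted p = 2.42e-06), or -1.30 relative to the median of all genes.

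Aqp11, whose loss in mice is known to cause cysts of the proximal tubule, showed the largest fall among the members. It was at 49.1, 55.0 and 53.3 CPM in RC/+ and at 22.7, 28.9, 21.4, 16.6 and 18.4 CPM in RC/-. The groups did not overlap and the log2 fold change was -1.30 ± 0.12 (SE, adjusted p = 1.32e-08). Aqp7, the aquaglyceroporin of the straight proximal tubule, was at 9.51, 11.3 and 10.1 CPM in RC/+. In RC/- it was at 7.91, 6.08, 5.08, 6.76 and 5.71 CPM, again without overlap, at a log2 difference of -0.71 ± 0.13 (SE, adjusted p = 1.42e-04). Without RC/- replicate 17 these 3 genes still fell, by 1.07 for Aqp1, 1.25 for Aqp11 and 0.68 for Aqp7 on the log2 scale.

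Markers of the segment moved with these members. All 10 proximal tubule markers fell in RC/-, with a median log2 fold change of -1.46, and their summed level was 1779.8 to 4430.3 CPM in RC/- against 8529 to 9216 CPM in RC/+. Among the 4 markers of the straight segment, Slc7a13 (log2 fold change -1.92) and Slc5a1 (-1.08) fell, Cyp7b1 rose by 1.32 and Slc22a7 did not pass. Among the 3 markers of the thin descending limb, where Aqp1 is also found, the urea transporter Slc14a2 fell by 1.08 on the log2 scale and Epha7 and Fst did not pass. The endothelial markers, listed because Aqp1 also marks the descending vasa recta, showed 3 of 6 lower (Emcn, Plvap and Kdr), at a summed 583 to 909 CPM in RC/- and 762 to 1060.5 CPM in RC/+. None of the 6 red blood cell markers passed. Adipocytes also express Aqp7, and of 4 adipocyte markers only Lep passed, upward, while their summed level spanned 28.1 to 66.5 CPM in RC/+ and 3.50 to 116 CPM in RC/-. The part of cell composition in the fall of Aqp1, Aqp7 and Aqp11 was not tested.

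**Figure D2:**
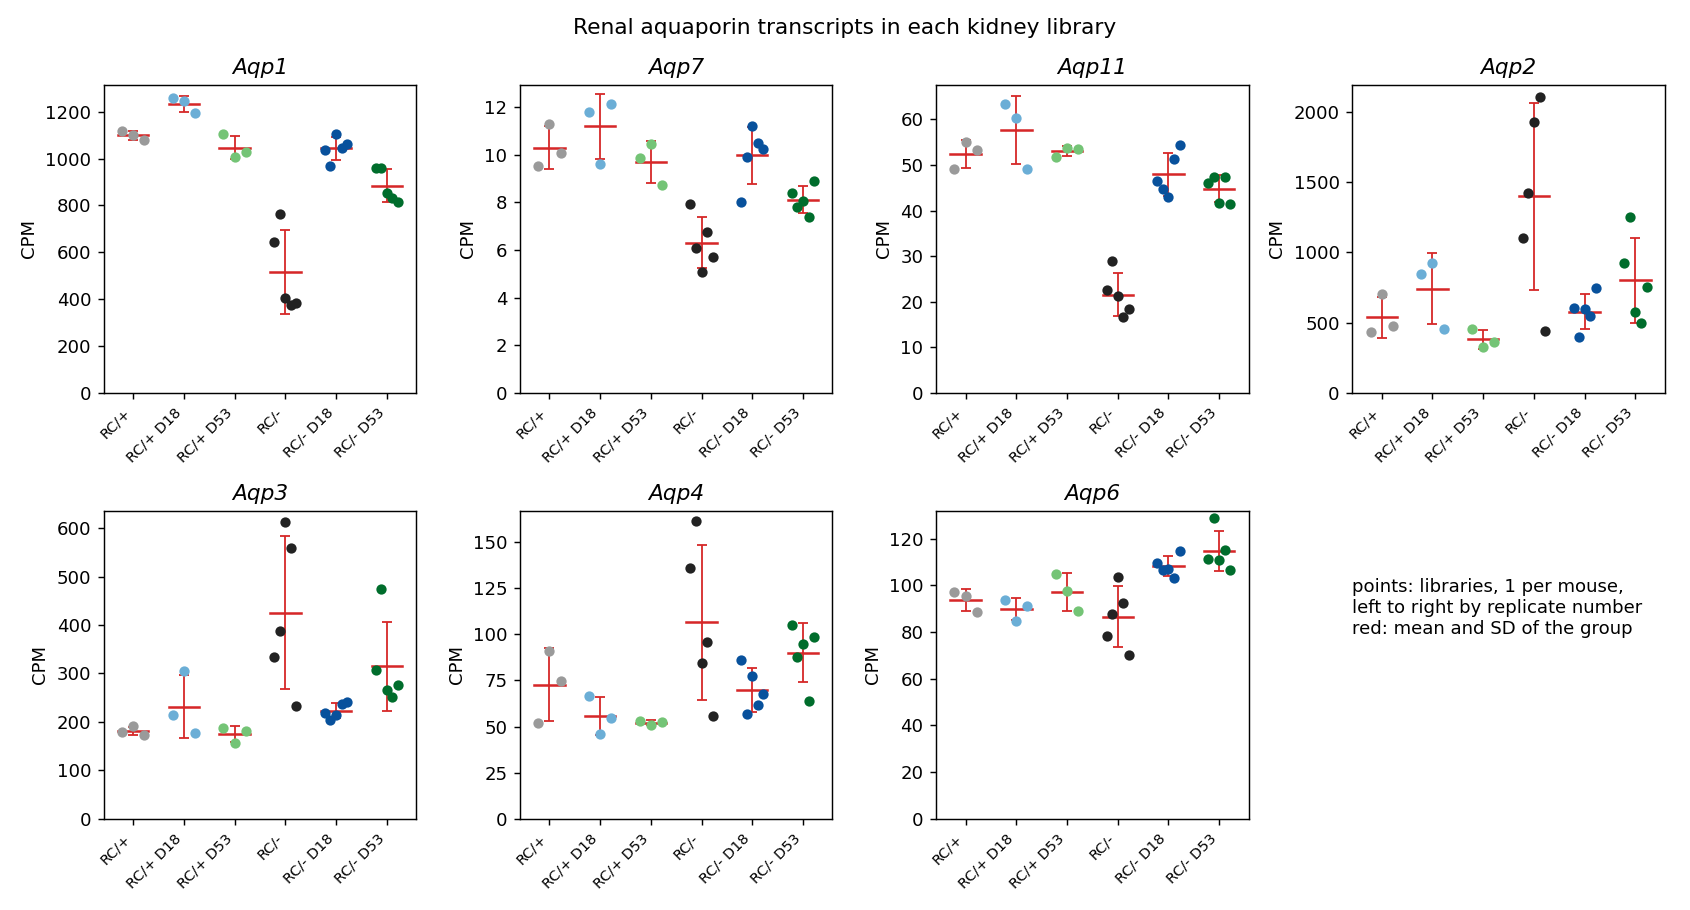
CPM of each member (one panel per gene, linear axes from 0) in every library, by group; red marks give the mean and SD. Aqp1, Aqp7 and Aqp11 of all 5 RC/- libraries lie below the RC/+ libraries, and RC/- replicate 17, the rightmost RC/- point, is lowest of its group for Aqp2, Aqp3, Aqp4 and Aqp6.

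The principal cell members went the other way. Aqp2, the vasopressin-regulated apical channel, was at 435, 701 and 474 CPM in RC/+. In RC/- it was at 1103, 1420.0, 1927, 2101 and 439 CPM, so that 4 libraries lay above every RC/+ library and replicate 17 lay among them. The log2 fold change was 1.23 ± 0.37 (SE, 95% confidence interval 0.47 to 1.98, adjusted p = 0.0100). Without replicate 17 it was 1.60 (adjusted p = 1.29e-04), and the mean of the other 4 libraries was 1638 ± 459 CPM. Without RC/+ replicate 4 it was 1.09 and did not pass (adjusted p = 0.0528).

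Aqp3, the basolateral exit for water and glycerol, was at 178, 191 and 174 CPM in RC/+ and at 334, 387, 614, 559 and 234 CPM in RC/-. Here replicate 17 was again lowest, but all 5 RC/- libraries lay above RC/+. The log2 fold change was 1.15 ± 0.23 (SE, adjusted p = 2.70e-04), and 1.34 without replicate 17.

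Aqp4, the second basolateral channel of the same cell, was at 52.0, 91.2 and 74.9 CPM in RC/+ and at 136, 161, 84.2, 95.6 and 55.5 CPM in RC/-. The groups overlapped. The log2 fold change of 0.49 ± 0.24 (SE, 95% confidence interval -0.0048 to 0.99) did not pass (adjusted p = 0.113), and without replicate 17 it was 0.70 and passed (adjusted p = 0.0107). When only the 12 libraries low in Gm28438 were fitted, which leaves replicate 17 as the sole RC/- library, the log2 fold changes were -0.26 for Aqp2 (adjusted p = 0.664), 0.37 for Aqp3 (adjusted p = 0.289) and -0.35 for Aqp4 (adjusted p = 0.343), whereas Aqp1 (-1.52), Aqp6 (-0.42), Aqp7 (-0.84) and Aqp11 (-1.51) passed, as did 26.7% of all genes in that fit.

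Principal cell markers were higher in RC/- too. Gata3 (log2 fold change 2.02), Hsd11b2 (1.98), Fxyd4 (1.87), Elf5 (1.85), Scnn1b (1.59) and Scnn1g (1.58) rose. Of the 7 markers only the vasopressin receptor Avpr2 did not pass (0.32, adjusted p = 0.602). It had only 3 to 11 counts per RC/- library and 4 to 9 per RC/+ library. The summed level of the 7 markers was 1381, 1757, 2479.9, 1919.9 and 1973 CPM in RC/- replicates 13 to 17 and 489.5 to 542 CPM in RC/+. Replicate 17, with 439 CPM of Aqp2, thus held the second highest marker sum of its group. Its proximal tubule markers, at 2442 CPM, were second lowest. What set Aqp2 apart from the markers in this library was not tested.

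**Figure D3:**
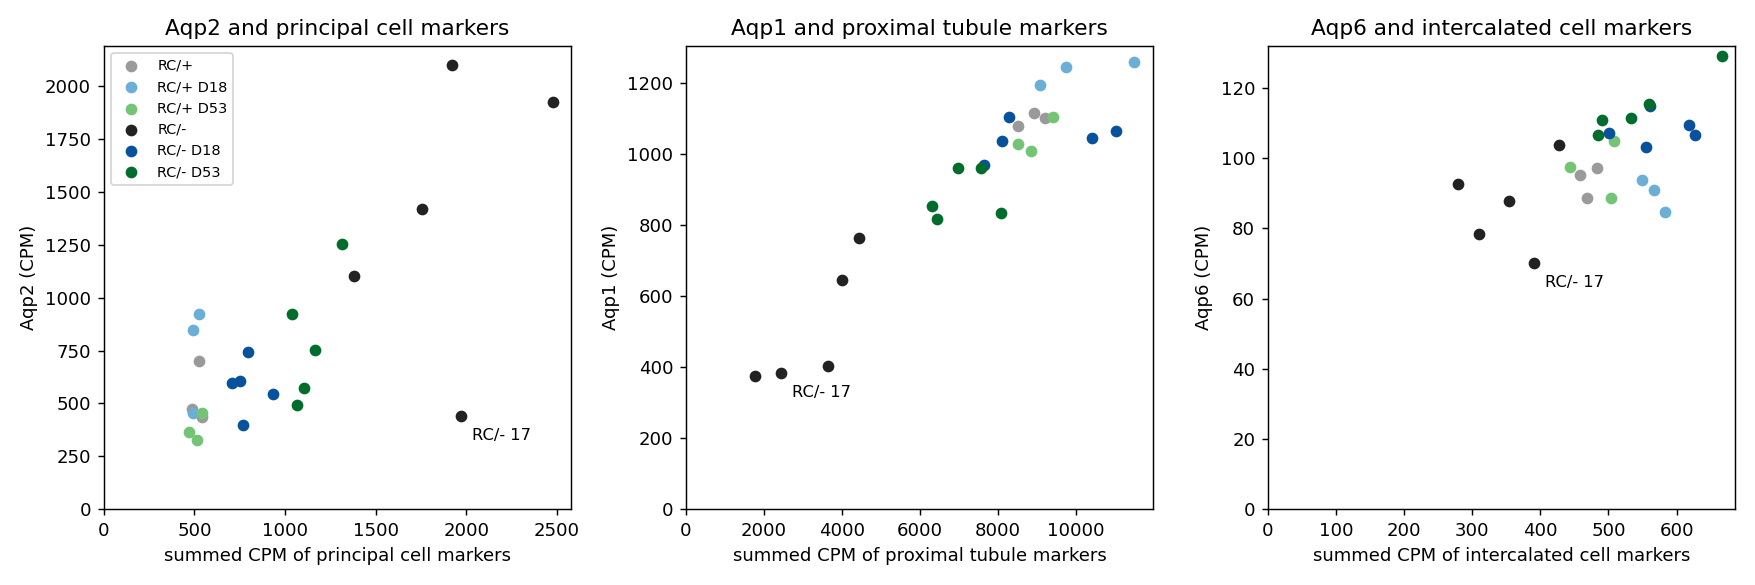
CPM of Aqp2, Aqp1 and Aqp6 in each library against the summed CPM of principal cell, proximal tubule and intercalated cell markers, respectively. Replicate 17 of RC/- has 439 CPM of Aqp2 at a principal cell marker sum of 1973 CPM, where the other 4 RC/- libraries have 1103 CPM or more.

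Aqp6 of the intercalated cell was at 97.3, 95.3 and 88.5 CPM in RC/+ and at 78.4, 87.8, 104, 92.6 and 70.1 CPM in RC/-, with overlap between the groups. Its log2 fold change of -0.13 ± 0.09 (SE) did not pass (adjusted p = 0.298), but it lay at -0.27 relative to the median of all genes, and with TMM scaling it passed (-0.27, adjusted p = 0.0469). Without replicate 17 it was -0.05 (adjusted p = 0.660), and with replicate 17 as the sole RC/- library, among those low in Gm28438, it was -0.42 and passed (adjusted p = 0.0171). Among the 6 intercalated cell markers, the anion exchangers Slc4a1 (log2 fold change -2.28) and Slc26a4 (-1.15) and the proton pump subunit Atp6v1g3 (-0.46) fell, the transcription factor Foxi1 rose (0.82), and Atp6v0d2 and Slc4a9 did not pass.

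The next question was what differs between RC/- kidneys with the motif deletion and those without it. Each edited line descends from a single founder, and the founder of the unedited mice is not stated. The deletion and other traits of a line therefore cannot be told apart. RC/- D18 and RC/- D53 were each compared with RC/-. These comparisons use the same 5 RC/- libraries as the one above, so that opposite signs are not independent of it. In RC/- D18 all 7 members passed, 4 upward and 3 downward, where 41.2% of all genes tested passed. In RC/- D53, 4 of 7 passed, all upward, where 30.2% of all genes passed.

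The proximal tubule members were higher in both edited lines. Aqp1 was at 1036, 968, 1103, 1044 and 1064 CPM in RC/- D18 and at 959.6, 961, 854, 832 and 817 CPM in RC/- D53. All 10 of these libraries lay above the highest RC/- library, which had 765 CPM. Its log2 fold change against RC/- was 1.09 ± 0.14 in D18 (SE, adjusted p = 7.08e-07) and 0.85 ± 0.14 in D53 (SE, adjusted p = 3.96e-05).

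Aqp11 was at 46.4, 44.7, 43.1, 51.4 and 54.3 CPM in RC/- D18 and at 46.0, 47.3, 41.8, 47.4 and 41.4 CPM in RC/- D53. Neither line overlapped with RC/-. The log2 fold changes were 1.17 ± 0.11 (SE, adjusted p = 7.13e-09) in D18 and 1.07 ± 0.11 (SE, adjusted p = 8.70e-08) in D53.

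Aqp7 was at 8.02, 9.92, 11.2, 10.5 and 10.2 CPM in RC/- D18 and at 8.40, 7.82, 8.06, 7.39 and 8.88 CPM in RC/- D53. The D18 libraries lay above all RC/- libraries, and the log2 difference was 0.66 ± 0.11 (SE, adjusted p = 5.26e-05). In D53 the groups overlapped, as 2 libraries lay below the highest RC/- value of 7.91 CPM, and the log2 fold change was 0.37 ± 0.11 (SE, adjusted p = 0.0157). Without RC/- replicate 15 the D53 value was 0.30 and did not pass (adjusted p = 0.0581). The 10 proximal tubule markers were all higher in both edited lines, by a median log2 fold change of 1.51 in D18 and 1.14 in D53. Red cells also carry Aqp1, and 5 of the 6 red blood cell markers rose in RC/- D53 against RC/- (median log2 fold change of the list 0.85) and 0 in RC/- D18. The part of either cell type in these differences was not tested.

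Aqp2 was at 605, 397, 596, 545 and 746 CPM in RC/- D18. These values lay below RC/- replicates 13 to 16 and around replicate 17, and the log2 fold change was -1.12 ± 0.32 (SE, adjusted p = 6.29e-03), or -1.49 without replicate 17 (adjusted p = 5.83e-05). In RC/- D53, Aqp2 was at 924, 1254, 574, 495 and 753 CPM, overlapped with RC/- and did not pass, at -0.70 ± 0.32 (SE, adjusted p = 0.103). Without RC/- replicate 17 the D53 value was -1.07 and passed (adjusted p = 2.74e-03), and without RC/- D53 replicate 24 it was -0.88 and passed (adjusted p = 0.0464). With only the libraries low in Gm28438, where replicate 17 is the sole RC/- library, it was 0.79 (adjusted p = 0.142). The direction for Aqp2 in D53 therefore depended on which RC/- libraries were used.

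Aqp3 was at 218, 205, 213, 238 and 241 CPM in RC/- D18, of which 3 libraries lay below the lowest RC/- library. The log2 fold change was -0.85 ± 0.20 (SE, adjusted p = 1.15e-03), or -1.04 without replicate 17. In RC/- D53 it was at 307, 475, 266, 252 and 276 CPM, within the range of RC/-, at a log2 difference of -0.39 ± 0.20 (SE, adjusted p = 0.146). Without RC/- replicate 17 this was -0.58 and passed (adjusted p = 0.0155), as it did without RC/- D53 replicate 24 (adjusted p = 0.0338). The value was 0.39 (adjusted p = 0.270) with only the libraries low in Gm28438.

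Aqp4 was at 86.2, 56.7, 77.5, 61.5 and 67.6 CPM in RC/- D18, all within the range of RC/-. Its log2 fold change of -0.53 ± 0.21 (SE) passed narrowly (adjusted p = 0.0452), and without RC/- replicate 17 it was -0.74 (adjusted p = 2.49e-03). The call was lost in 6 of 10 fits that left out 1 library (RC/- replicates 13, 14 and 16 and RC/- D18 replicates 19, 21 and 22), with an adjusted p of 0.0606 to 0.160, and with TMM scaling (adjusted p = 0.134). In RC/- D53 it was at 105, 87.8, 95.05, 64.0 and 98.8 CPM and did not pass (-0.16 ± 0.21, SE, adjusted p = 0.608). Aqp4 is also known from fast skeletal muscle, whose markers were high in libraries 20 to 27. In RC/- D18, the libraries with those markers held 61.5 to 77.5 CPM of Aqp4 and the 2 without them 86.2 and 56.7 CPM.

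Aqp6 was at 109.5, 107, 107, 103 and 115 CPM in RC/- D18 and at 111, 129, 111, 115 and 106 CPM in RC/- D53. The log2 fold change was 0.33 ± 0.08 (SE, adjusted p = 1.42e-03) in D18, where 4 of 5 libraries lay above RC/-, and 0.41 ± 0.08 (SE, adjusted p = 2.85e-04) in D53, where all 5 did. Of the 6 intercalated cell markers, 5 were higher in each edited line, led by Slc4a1 at a log2 fold change of 2.30 in D18 and 2.16 in D53.

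The set of 8 libraries with muscle markers holds the whole RC/- D53 group. With that set as a covariate, which rests on the RC/- D18 group having libraries of both kinds, 1 of 7 members passed in D53 against RC/-, namely Aqp11 (log2 fold change 0.96, adjusted p = 2.82e-03), while the share of all genes that passed was 7.96% instead of 30.2%. Aqp1 was then at 0.75 (adjusted p = 0.0568), Aqp6 at 0.41 (adjusted p = 0.0767) and Aqp7 at 0.12 (adjusted p = 0.782). In D18 against RC/-, 6 of 7 passed with the covariate, where 27.5% of all genes did, and also without libraries 20 to 27, where 26.4% did. Aqp4 was the exception in both (adjusted p = 0.190 and 0.242).

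**Figure D4:**
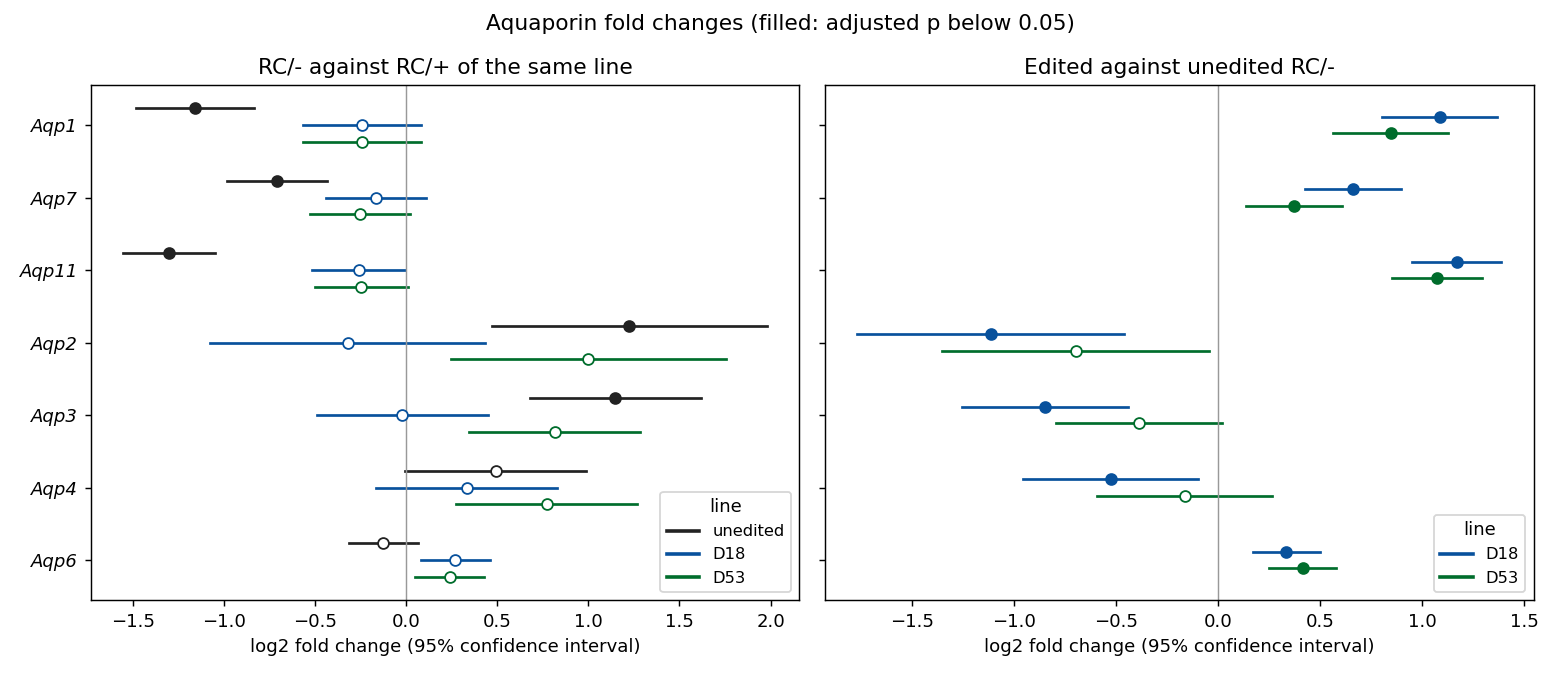
Log2 fold change of each member with its 95% confidence interval. The left panel shows RC/- against RC/+ among unedited mice and within each edited line, and the right panel edited against unedited RC/-. Filled points have an adjusted p below 0.05 by limma-trend. Among unedited mice Aqp11 lies at -1.30 and Aqp2 at 1.23, while no member is filled within D18 or D53.

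RC/- and RC/+ were also compared within each edited line, on libraries that the comparison of the unedited groups does not use. Within D18, 0 of 7 members passed by limma-trend, edgeR or DESeq2, where 0.266% of all genes tested passed by limma-trend. By limma-trend, 2011 of 22570 genes had an unadjusted p below 0.05, and among the members 2 did. Those were Aqp6, which was higher in all 5 RC/- D18 libraries (log2 fold change 0.27 ± 0.09, SE, adjusted p = 0.299), and Aqp11 (-0.26 ± 0.12, SE, adjusted p = 0.540). Aqp2 stood at -0.32 ± 0.37 (SE) and Aqp3 at -0.02 ± 0.23 (SE), with 95% confidence intervals of -1.08 to 0.43 and -0.49 to 0.45. Principal cell markers summed to 706 to 935 CPM in RC/- D18 against 493 to 524 CPM in RC/+ D18, and 2 of the 7, Gata3 (0.77, adjusted p = 2.09e-03) and Hsd11b2 (0.76, adjusted p = 0.0325), rose.

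Within D53, 0 of 7 members passed by the same 3 tests, where 2.6% of all genes passed by limma-trend. By limma-trend, 3013 of 22570 genes had an unadjusted p below 0.05, and among the members 4 did, namely Aqp2, Aqp3, Aqp4 and Aqp6. Aqp2 was at 455, 326 and 364 CPM in RC/+ D53, below all 5 RC/- D53 libraries. The difference was 1.0003 ± 0.37 on the log2 scale (SE, adjusted p = 0.185). Aqp3, at 187, 156 and 181 CPM in RC/+ D53, and Aqp4, at 53.03, 50.7 and 52.6 CPM, also lay below all RC/- D53 libraries, by 0.81 ± 0.23 on the log2 scale for Aqp3 (SE, adjusted p = 0.0546) and by 0.77 ± 0.24 for Aqp4 (SE, adjusted p = 0.0952). When the fit held only the RC/+ D53 and RC/- D53 groups, these 3 genes passed (adjusted p = 0.0253 for Aqp2, 0.0104 for Aqp3 and 0.00303 for Aqp4). The share of all genes in that fit is not given here. All 5 RC/- D53 libraries, but no RC/+ D53 library, are in the set with muscle markers, and all 6 of those markers rose within D53. Genotype and that set therefore cannot be told apart within this line. With the set as a covariate, which rests on the RC/- D18 group, 0 of 7 members passed, where 1.27% of all genes did. Without RC/- D53 replicate 26, Aqp3 passed alone (adjusted p = 0.0463). Aqp6 was higher in all 5 RC/- D53 libraries than in RC/+ D53, at 0.24 ± 0.09 on the log2 scale (SE, adjusted p = 0.215). Aqp1 and Aqp11 were lower in all 5, at -0.24 ± 0.16 (SE, adjusted p = 0.549) and -0.25 ± 0.12 (SE, adjusted p = 0.393). Of the 7 principal cell markers 6 rose within D53, by up to 1.51 on the log2 scale for Elf5.

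Whether the difference between RC/- and RC/+ is unequal between edited and unedited mice was tested by interaction contrasts. These subtract the log2 fold change between the unedited RC/- and RC/+ groups from that of an edited line. For D18, 6 of 7 members passed, where 17.1% of all genes did. The contrast was 0.92 ± 0.22 for Aqp1 (SE, adjusted p = 5.43e-03), 1.04 ± 0.17 for Aqp11 (SE, adjusted p = 2.07e-04) and -1.17 ± 0.32 for Aqp3 (SE, adjusted p = 0.0130). It was -1.55 ± 0.52 for Aqp2 (SE, adjusted p = 0.0407), 0.40 ± 0.13 for Aqp6 (SE, adjusted p = 0.0363) and 0.55 ± 0.19 for Aqp7 (SE, adjusted p = 0.0463). Among 16 fits that each left out 1 library, the call was lost in 12 for Aqp7 (adjusted p of 0.0510 to 0.147), 9 for Aqp2 (0.0555 to 0.113) and 7 for Aqp6 (0.0583 to 0.098). It was lost in 1 for Aqp3 (RC/+ D18 replicate 8, adjusted p = 0.0566) and in none for Aqp1 and Aqp11. Without RC/- replicate 17, 4 members passed, where 15% of all genes did. Aqp4 did not pass (-0.16 ± 0.34, SE, adjusted p = 0.811). For D53, 2 of 7 members passed, where 11.3% of all genes did, namely Aqp1 (0.92 ± 0.22, SE, adjusted p = 8.60e-03) and Aqp11 (1.06 ± 0.17, SE, adjusted p = 4.90e-04). With libraries 20 to 27 as a covariate, the D53 contrast passed for Aqp11 alone (0.94, adjusted p = 0.0383), Aqp1 was at 0.82 (adjusted p = 0.163), and 1.79% of all genes passed. The D18 contrast then passed for Aqp1, Aqp3 and Aqp11, where 10.4% of all genes did, and without those libraries for Aqp3 and Aqp11, where 9.1% did. For Aqp2 the D53 contrast was -0.23 ± 0.52 (SE) and for Aqp3 -0.33 ± 0.32 (SE), with 95% confidence intervals of -1.29 to 0.84 and -0.997 to 0.33.

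The edited lines were compared with each other in RC/- kidneys. None of the 7 members passed by limma-trend, edgeR or DESeq2, where 0.266% of all genes did by limma-trend. By limma-trend, 2993 of 22570 genes had an unadjusted p below 0.05, and among the members 2 did. Aqp3 was higher in all 5 RC/- D53 libraries than in any RC/- D18 library, and Aqp1 lower in all 5 (-0.24 ± 0.14, SE, adjusted p = 0.459). The difference for Aqp3 was 0.46 ± 0.20 on the log2 scale (SE, adjusted p = 0.315), and Aqp7 was at -0.29 ± 0.11 (SE, adjusted p = 0.290). The edited lines were also compared with the unedited mice in RC/+ kidneys. For RC/+ D18 against RC/+, 0 of 7 passed by these 3 tests. By limma-trend none had an unadjusted p below 0.05, and 0.00443% of all genes passed. For RC/+ D53 against RC/+, 0 of 7 passed by the same tests. Again by limma-trend, none had an unadjusted p below 0.05, and 0% of all genes passed. In RC/+ D18, Aqp1 was at 1259.8, 1244 and 1193 CPM, above all RC/+ libraries, at a log2 fold change of 0.17 ± 0.18 (SE, 95% confidence interval -0.20 to 0.53).

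Ordered by mean level over the 6 groups, Aqp1 was highest in RC/+ D18 (1232 ± 34.7 CPM, SD, n = 3) and lowest in RC/- (514 ± 179 CPM, SD, n = 5). Next to RC/- came RC/- D53 (885 ± 70.3 CPM) and then RC/- D18 (1043 ± 49.2 CPM), and these 3 groups did not overlap. RC/- D18 and RC/+ D53 (1047 ± 50.7 CPM) lay within each other's spread, as did RC/+ D53 and RC/+. Aqp11 had the same lowest groups, RC/- (21.6 ± 4.72 CPM) and RC/- D53 (44.8 ± 2.97 CPM), and the remaining neighbours in its order overlapped. Aqp2 ran from RC/- (1398 ± 667 CPM) over RC/- D53 (800.0 ± 304 CPM), RC/+ D18 (741 ± 252 CPM), RC/- D18 (578 ± 125 CPM) and RC/+ (537 ± 144 CPM) to RC/+ D53 (382 ± 66.2 CPM), and every pair of neighbours overlapped. For Aqp3, a gap without overlap lay only between RC/- D18 (223 ± 15.8 CPM) and RC/+ (181 ± 8.95 CPM). Neighbours overlapped throughout for Aqp4, Aqp6 and Aqp7. The spread within RC/- was wide for Aqp2, with a coefficient of variation of 47.7%, or 28.0% without replicate 17, and in RC/- D18 it was 21.7%.

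Other mouse aquaporins were at low counts. Aqp5, the secretory gland channel that lies between Aqp2 and Aqp6, had 11 to 27 counts in each RC/+ library and 121, 100, 95, 118 and 159 counts in RC/-. Replicate 17 was highest here, in contrast to Aqp2 and Aqp6 on either side of it. Aqp5 rose in RC/- by 2.75 ± 0.37 on the log2 scale (SE, adjusted p = 2.47e-06) and was lower by 1.85 ± 0.32 in RC/- D18 (SE, adjusted p = 5.45e-05), with -1.84 ± 0.32 in RC/- D53 (SE, adjusted p = 1.08e-04). Aqp8 had 1 to 10 counts and Aqp9 2 to 27 counts per library, and neither passed in these 3 comparisons. Aqp12, with at most 1 count, and Mip, with at most 3, were below the limit for testing.

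Of 16 genes of vasopressin signalling, Aqp2 trafficking and Aqp2 transcription, 9 rose and 0 fell in RC/-, beside 37.6% of all genes passing in either direction. The median log2 fold change of the list was 0.36, against 0.14 for all genes. Transcription factors of the collecting duct led, with Gata3 at 2.02, Elf5 at 1.85, Elf3 at 1.83, Gata2 at 1.42, Grhl2 at 0.97 and Tfcp2l1 at 0.76. Creb1, the factor phosphorylated by protein kinase A (0.28), the adenylyl cyclase Adcy3 (0.66) and the membrane fusion protein Stx4a (0.41) rose as well. The signalling core did not pass, with Avpr2 at 0.32, the G protein subunit Gnas at -0.15, the cyclase Adcy6 at -0.02, the kinase subunit Prkaca at 0.17 and its anchor Akap7 at 0.20, nor did the fusion proteins Vamp2 (-0.05) and Snap23 (-0.11). Avpr2 had 3 to 11 counts per RC/- library and 4 to 9 per RC/+ library, too few to show whether it changed. Avpr2, Gata3 and Elf5 also stand in the principal cell marker list. In RC/- D18 against RC/-, 9 of the 16 fell and none rose, where 41.2% of all genes passed in either direction. In RC/- D53 against RC/-, 7 fell and none rose, where 30.2% passed. Within D18, Gata3 and Gata2 were the 2 genes of the list that rose, where 0.266% of all genes passed. Within D53 there were 6, where 2.6% of all genes passed.

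Of 7 genes for urea and osmolyte handling in the renal medulla, where Aqp2 to Aqp4 set water permeability, 0 rose and 3 fell in RC/-, a share near the 37.6% of all genes that passed in either direction. These were Slc6a12, a betaine transporter (-1.40, adjusted p = 0.0400), Slc14a2, the urea transporter of the thin limb and inner medullary collecting duct (-1.08, adjusted p = 4.60e-03), and Slc6a6, the taurine transporter (-0.27, adjusted p = 0.0297). Nfat5, the tonicity-responsive transcription factor, was at 0.35 and did not pass (adjusted p = 0.138). The median of the list was -0.43. In RC/- D18 4 of the 7 rose against RC/-, among them Slc6a12 (1.96) and the inositol transporter Slc5a3 (1.06), where 41.2% of all genes passed in either direction, and in RC/- D53 3 rose, where 30.2% passed.

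The genes most like each member across the 24 libraries were found as the smallest root-mean-square difference of centred log2 CPM among 22423 genes. For Aqp2 the nearest was Aqp3 (0.32, where Aqp2 itself varied by 0.72 about its mean), followed by Cend1 (0.45) and Dab1 (0.47). For Aqp3 they were Gstt1 (0.28), Dab1 (0.29) and Prkcb (0.30). Aqp11 was matched most closely, by Pxmp2, a peroxisomal membrane protein (0.09), Gcdh, glutaryl-CoA dehydrogenase (0.10), and Clrn3 (0.10), against its own variation of 0.54. Aqp1 was nearest to Sfxn2 (0.12), Hoga1 (0.13) and Fah (0.13), with its own variation at 0.50. For Aqp4 they were Arl4d (0.19), Fam174b (0.22) and Tmem30b (0.22), for Aqp6 Tdrp (0.14), Coq5 (0.15) and Fam107b (0.15), and for Aqp7 Arhgap42 (0.15), Idh3b (0.16) and Acadm (0.16). These are descriptions over libraries that share their groups.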

How the data were processed

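RNA was extracted from flash-frozen whole kidneys with the Qiagen miRNeasy kit and sequenced, 1 library per mouse. The authors trimmed reads with Trim Galore 0.6.3, aligned them to GRCm38 with STAR 2.5.3a and deposited raw read counts per gene for Ensembl release 94. Which strand column was taken is not given in the sources used here.

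Counts were scaled by library totals to CPM, with a total of 1000000, and taken to log2 (prior count 2). Genes whose log2 CPM averaged -3 or more were tested by limma-trend (limma 3.58.1, R 4.3.3) on group means over all 24 libraries, as in the study's methods, with Benjamini-Hochberg adjustment within each comparison over 22570 genes and a threshold of 0.05. SE are those of the moderated fit. TMM factors, edgeR 4.0.16, DESeq2 1.42.0, other filters and prior counts, covariates and leaving out each library were alternatives, and the steps were tested on simulated counts. Fits without libraries 20 to 27, and with only the libraries under 100 counts of Gm28438, were added after seeing the data. Totals of 20379982 to 30837488 counts put all members at 128 counts or more in every library. The members, marker lists and pathway lists were chosen with earlier results of these data known, and every member is named. A further gene was left out of the vasopressin list, whose counts cover 16 genes. The p-values of limma-trend rest on the spread between mice within groups, pooled over all groups of the fit and moderated over genes. They do not follow the spread of single groups, which was unequal. For Aqp4, the coefficient of variation was 39.5% in RC/- and 2.35% in RC/+ D53. Promoters are from RefSeq, and exon lengths and positions from GENCODE of GRCm38. The table holds only counts and gene names.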

Additional observations from a re-analysis of the deposited data

Results flagged for a closer look

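Aqp3 in RC/- D53 replicate 24, at 474.9 CPM, stood apart from the other 4 libraries of its group, of which the next highest was at 307 CPM. Its gap was 0.753 of the range, above Dixon's 95% value of 0.710 for 5 samples. This was 1 of 21 groups of 5 libraries tested for the 7 members, and chance marks about 1 in 20 groups.

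The RC/- against RC/+ difference was unequal between D18 and the unedited mice by the interaction contrast of limma-trend for 6 members. On the log2 scale it was 0.92 for Aqp1, -1.55 for Aqp2, -1.17 for Aqp3, 0.40 for Aqp6, 0.55 for Aqp7 and 1.04 for Aqp11. The same contrast for D53 was 0.92 for Aqp1 and 1.06 for Aqp11.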

How the results depend on the processing

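Of the single-gene values recomputed under the alternatives, 1123 kept their direction and their side of the threshold, 67 lost and 23 gained the call, and 12 changed direction. Members called moved by over 1.5 times as follows. With libraries 20 to 27 as a covariate, 1 was called for RC/- D53 against RC/-, where 7.96% of all genes were called. The D18 interaction then called 3 (Aqp2, Aqp6 and Aqp7 lost), where 10.4% of all genes were called. The D53 interaction called 1 (Aqp1 lost), where 1.79% were. Without those libraries the D18 interaction called 2 (Aqp1 lost as well), where 9.1% of all genes were called. It called 3 with no filter and 3 with only its own groups. The share of all genes is not given here for these 2 settings or for the fits that follow. With own groups only, 3 were called for RC/- against RC/+ within D53, as with only the libraries low in Gm28438, where 3 were called. The D53 interaction called 4 by DESeq2 and 4 with the libraries low in Gm28438. Leaving out 1 library gave 0 to 1 calls within D53, 2 to 6 for the D18 interaction, 3 to 6 for RC/- D53 against RC/-, 4 to 6 for RC/- against RC/+ and 2 to 3 for the D53 interaction. Some of these fits hold fewer libraries, and what caused the changes was not tested.

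Directions changed with only the libraries low in Gm28438, where replicate 17 is the sole RC/- library and is assumed to vary like the other groups. RC/- against RC/+ was then -0.26 for Aqp2 and -0.35 for Aqp4, RC/- D53 against RC/- was 0.79 for Aqp2, 0.39 for Aqp3 and 0.68 for Aqp4, and the D53 interaction was 1.26 for Aqp2 and 0.44 for Aqp3. Leaving out 1 library turned values that had not passed. Aqp4 in RC/- D53 against RC/- ranged from -0.37 to 0.0099 (positive without RC/- replicate 14), Aqp3 within D18 from -0.20 to 0.19 (positive without RC/+ D18 replicate 8 and, at 0.0074, without RC/- D18 replicate 19) and the D18 interaction of Aqp4 from -0.37 to 0.063 (positive without RC/+ replicate 4 and, at 0.015, without RC/- replicate 14). No paired analysis was possible because no replicate number occurs in more than 1 group.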
